A study of Macaca mulatta with 6 samples.

Results

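The comparison described here is that of progesterone added to estrogen in serotonin neurons of female rhesus macaques (Macaca mulatta). Its members were chosen by sample title: 4 of the 6 arrays of the series, 2 from monkeys given estrogen and 2 from monkeys given estrogen together with progesterone. Every probe set that is not an Affymetrix control was used, 52766 on each array. Steroids were delivered for 1 month from Silastic capsules placed under the skin, and neurons were cut out by laser from the dorsal raphe nucleus. Each array holds 1 monkey. The remaining 2 arrays, titled placebo with the tag Ovx, are shown beside the results as the background without either hormone. Doses and ages were not given in the labels used here. Ovariectomy is marked in the placebo titles alone.

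Dorsal raphe serotonin neurons supply most of the forebrain's serotonin. They make it with tryptophan hydroxylase 2 (TPH2) and pack it into vesicles with the transporter SLC18A2. Estrogen acts through the nuclear receptors ESR1 and ESR2, and progesterone through the nuclear receptor PGR, whose gene is a classic target of estrogen. Progesterone is also bound by membrane proteins of the PGRMC and PAQR families, and it can be converted to neurosteroids that act on GABA-A receptors. Comparing both hormones with estrogen alone asks what progesterone changes once estrogen is present.

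No probe set passed the test for a difference between both hormones and estrogen alone. Of 26383 probe sets tested with limma, 0.00% had a Benjamini-Hochberg adjusted p under 0.05, and the smallest adjusted p was 0.799. An unadjusted p under 0.05 was reached by 391 probe sets that were higher with both hormones (1.48%) and by 73 that were lower (0.277%), against 1319 probe sets that make up 5% of those tested. The median standard error was 0.95 on the log2 scale, so a difference had to be several-fold to stand out from this spread. An exact permutation test of 2 arrays against 2 cannot give a two-sided p under 0.33. The verbs below therefore describe positions of single arrays, and no gene is said to have changed.

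The 2 arrays with both hormones did not resemble each other. Over the tested probe sets, estrogen+progesterone 1 correlated with estrogen 1 at r = 0.913 and with estrogen 2 at r = 0.842, while the 2 estrogen arrays correlated at r = 0.862. Estrogen+progesterone 2 correlated with estrogen 1 at r = -0.0504, with estrogen 2 at r = -0.0413 and with its own replicate at r = 0.000477. These correlations run across probe sets, which are not independent, and describe the arrays only. It was closer to the placebo arrays, with r = 0.290 against placebo 2, the lower of the pair.

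Signal was judged against a floor set per array: 95% of its 59 unspiked controls, which target bacterial or tag sequences, read lower than this value. The floor was 29.99 and 51.6 on the estrogen arrays, 74.9 on estrogen+progesterone 1 and 283 on estrogen+progesterone 2, in the arbitrary units of the deposited signal. Of 26661 probe sets above the floor on both estrogen arrays, 22087 were also above it on estrogen+progesterone 1 but only 10010 on estrogen+progesterone 2. A low signal on that array is thus often not distinguishable from no signal. Each value below is given for all 4 arrays, in the order estrogen 1, estrogen 2, estrogen+progesterone 1 and estrogen+progesterone 2.

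**Figure D1:**
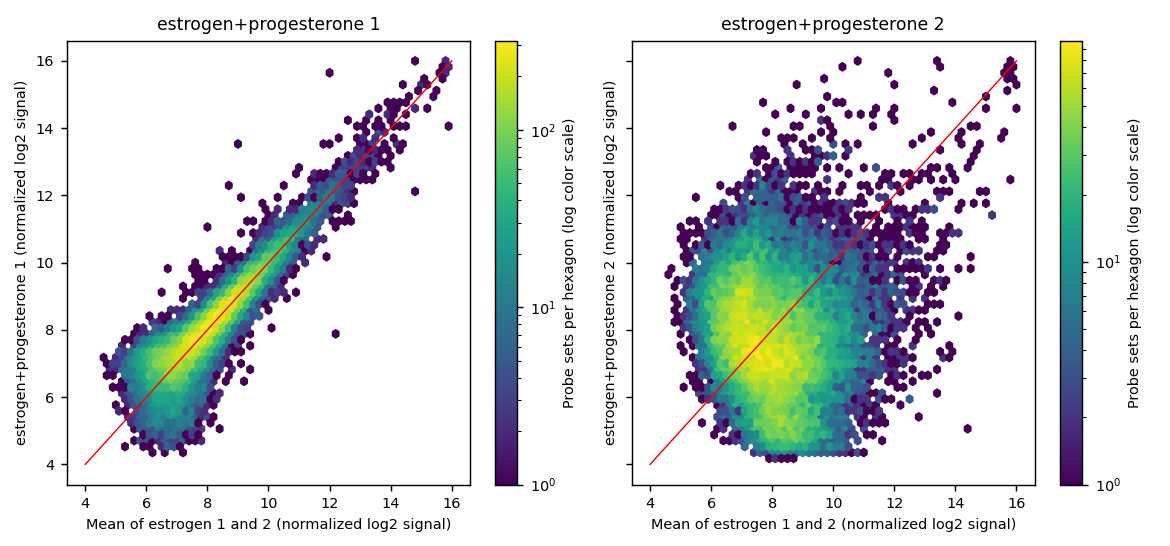
Normalized log2 signal of each array with both hormones (vertical axis) against the mean of the 2 estrogen arrays (horizontal axis) for 26383 probe sets; color gives the number of probe sets on a log scale and the red line marks equality. The first array follows the line (r = 0.913 and 0.842 with the single estrogen arrays) and the second forms a cloud around no common line (r = -0.0504 and -0.0413).

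The distance between the arrays can be counted gene by gene. For each gene the tested probe set that was brightest on average over the 6 arrays was taken, which left 9781 genes, and 8509 of them were above the floor on both estrogen arrays and on estrogen+progesterone 1. Of these, 612 (7.19%) differed by at least 1 log2 unit between the 2 estrogen monkeys. Estrogen+progesterone 1 differed that much from estrogen 1 for 71 genes (0.834%) and from estrogen 2 for 573 (6.73%). Over these genes the median absolute difference was 0.34 log2 units between the estrogen monkeys, 0.19 from estrogen+progesterone 1 to estrogen 1 and 0.34 to estrogen 2. Over all tested probe sets the share differing by at least 1 unit was 14.1% between the estrogen monkeys, 7.52% from estrogen 1 and 15.7% from estrogen 2. Estrogen+progesterone 2 differed by that much from estrogen 1 for 5751 genes (67.6%).

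A gene counted as outside the estrogen pair when its normalized signal lay above or below both estrogen arrays, and groups are called not overlapping on the same normalized scale. Estrogen+progesterone 1 lay at least 1 log2 unit above both for 12 of the 8509 genes (0.141%) and that far below both for 4 (0.0470%). A gene under the floor on estrogen+progesterone 1 is not among the 8509, so falls to that level were not counted. For estrogen+progesterone 2 these counts were 951 (11.2%) and 4182 (49.1%). Results are therefore given for estrogen+progesterone 1 on its own as well. With it as the only array of its group, and the spread taken from the other groups, limma called 0 probe sets and gave 169 at an unadjusted p under 0.05.

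The serotonin genes come first because they define the cells. TPH2, which catalyzes the rate-limiting step of serotonin synthesis, read 54.0, 63.2, 12.5 and 243. It exceeded the floor on the estrogen arrays alone, so the 243 of estrogen+progesterone 2 is no higher than that array's background. SLC18A2, the vesicular monoamine transporter, read 738, 237, 374 and 47.9, with estrogen+progesterone 1 between the estrogen monkeys. A second tested probe set of SLC18A2 read 124, 35.5, 45.6 and 446, again with estrogen+progesterone 1 between them. The 2 probe sets disagreed on estrogen+progesterone 2, and their differences were -1.60 and 0.82. MAOA, which degrades serotonin, read 600, 536, 527 and 367, all above the floor. Its difference was -0.22 ± 0.91 (log2, SE, n = 2 per group), well inside the spread between animals.

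FEV (Pet-1), the transcription factor that maintains serotonin identity, read 80.0, 122, 154 and 302 and was above the floor throughout. Both arrays with both hormones were above both estrogen arrays, but the placebo arrays read 434 and 261 and thus reached as high. The difference was 0.46 ± 0.84, with an adjusted p from limma far above 0.05. GATA3, a transcription factor of the same network, read 436, 239, 553 and 570 (1.03 ± 0.84), again without overlap. The serotonin transporter SLC6A4 and the decarboxylase DDC had no probe set with that name here. The autoreceptors HTR1A and HTR1B were above the floor on only 1 of the 4 arrays each, HTR1A on estrogen 2 at 56.2 and HTR1B on estrogen+progesterone 2 at 321.

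Of 24 genes listed for serotonin neuron identity, 17 had a probe set and 11 were tested. Both arrays of both hormones lay above both estrogen arrays for 2 of the 11 (FEV and GATA3) and below for 0, against 13.5% and 17.9% of all tested genes. Estrogen+progesterone 1 alone lay above both for 6 of 11 and below both for 0, against 34.5% and 27.0% of all genes. Besides FEV and GATA3, the members above were GATA2, the organic cation transporter SLC22A3, and GCH1 and PTS, which make the hydroxylase's cofactor tetrahydrobiopterin. The gaps were small: GATA3 was 0.30, FEV 0.26 and SLC22A3 0.41 log2 units above the nearer estrogen array, and the other 3 at most 0.08.

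Receptors for the 2 hormones gave little signal. PGR, the nuclear progesterone receptor, read 2.61, 4.84, 21.4 and 351. On the estrogen arrays and on estrogen+progesterone 1 it stayed under the floor, and only estrogen+progesterone 2 and 1 placebo array (313) exceeded theirs. ESR1 was under the floor on all 6 arrays, at 14.9, 10.8, 46.3 and 26.2 on these 4. ESR2 read 63.4, 95.3, 53.7 and 20.6, above the floor with estrogen and not above it with both hormones. None of the 3 passed the filter for testing, so they have no test.

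The membrane-associated progesterone-binding proteins were abundant. PGRMC1, a heme-binding protein that partners cytochrome P450 enzymes, read 9146, 5284, 11202 and 539. The first array of both hormones was slightly above both estrogen monkeys and the second was far below them, giving a mean difference of -0.95 ± 1.07 that turned to 0.51 without the second array. PGRMC2 behaved likewise with 1543, 835, 1602 and 415 (-0.19 ± 0.87). PAQR7, a membrane progestin receptor, read 120, 265, 158 and 345, with overlapping groups and a difference of 0.13 ± 0.82. PAQR6, of the same family, read 5918, 7720, 6499 and 540. FKBP5, an immunophilin gene induced by steroid receptors, stayed under the floor on all 4 arrays.

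FKBP4 is the immunophilin co-chaperone that PGR needs for full activity, and it was singled out after its values were seen. It read 716, 1268, 329 and 475, with estrogen+progesterone 1 at 0.67 log2 units below the nearer estrogen array. PTGES3 (p23), another co-chaperone of steroid receptors, stood on the other side with 66.4, 102, 186 and 272, although the 272 is not above the floor of its array. Among the 11 tested genes of the membrane receptor and immunophilin list, the groups did not overlap for 1 higher and 2 lower, and estrogen+progesterone 1 lay above both for 3 and below both for 3. The shares over all tested genes were 13.5% and 17.9% without overlap, and 34.5% and 27.0% for estrogen+progesterone 1. Among 12 nuclear receptors and coregulators, which relay the receptor's signal to transcription, the groups did not overlap for 1 higher and 2 lower. Estrogen+progesterone 1 lay above both for 5 of these and below both for 2, so both lists were near those shares.

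**Figure D2:**
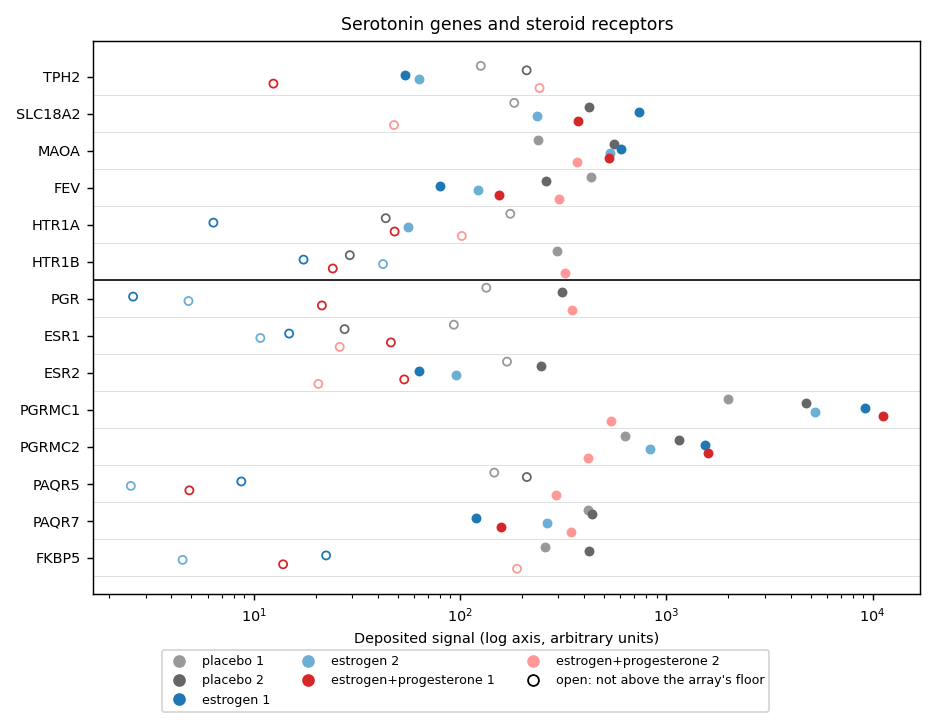
Deposited signal (log axis, arbitrary units) of 14 serotonin genes and steroid receptors on all 6 arrays, 1 point per monkey; open points are not above that array's floor. PGRMC1 and PGRMC2 are filled on every array, with estrogen+progesterone 1 (11202 and 1602) beside estrogen and estrogen+progesterone 2 (539 and 415) at the left, while PGR and ESR1 are open on the estrogen arrays.

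Genes known to respond to progesterone in other tissues did not shift together on the array with good signal. Of 32 listed genes, 27 had a probe set and 15 were tested. Their median difference was -0.72, and 0.03 without estrogen+progesterone 2, against -0.44 and 0.05 for all tested genes. The groups did not overlap for 1 higher and 4 lower of the 15, against 13.5% and 17.9% of all tested genes. LIFR, the receptor for leukemia inhibitory factor, read 26.5, 54.5, 103 and 349 and was the 1 above. CEBPB, a transcription factor of decidualization, read 661, 579, 473 and 52.1 (-1.83 ± 1.12). For DUSP1 (1051, 759, 822 and 132) and SGK1 (1061, 306, 837 and 24.98), a phosphatase and a kinase induced by steroids and stress, estrogen+progesterone 1 lay between the estrogen monkeys.

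Classic estrogen-responsive genes were examined for a reversal when progesterone was added. In 12 tested genes the groups did not overlap for 3 higher and 2 lower, against 13.5% and 17.9% of all tested genes, and the median was -0.16, or 0.04 without estrogen+progesterone 2. The sign of the first of these medians turns with the scaling: it was 0.06 without quantile normalization and -0.74 after median-centering. CA12, the carbonic anhydrase known as an estrogen target in breast, was the clearest member below. Its main probe set read 352, 464, 99.9 and 277, against 84.7 and 18.9 with placebo, both under the placebo floors of 216 and 221. Both arrays with both hormones were below both estrogen arrays, although the 277 is not above the floor of its array. On the second probe set placebo 1 read 304, above its floor and above both estrogen arrays, so the probe sets disagree on the placebo level. The difference was -1.15 ± 0.86, and -1.52 without estrogen+progesterone 2. It was negative under every alternative run.

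CA12 has 4 probe sets, and on every one the deposited signal of estrogen+progesterone 1 was below both estrogen arrays. The second probe set read 56.7, 118, 35.6 and 78.9, the third 107, 412, 39.7 and 35.4, and the fourth 56.1, 100.1, 5.33 and 65.5. Estrogen+progesterone 2 was below both estrogen arrays on the first and the third; on the second and the fourth it was above estrogen 1, and only quantile normalization placed it below both. None of its 4 readings exceeded the floor of its array. All 4 probe sets exceeded the floor on both estrogen arrays, and only the first did on estrogen+progesterone 1, so a gap can be given for that one alone: 1.27 log2 units below the nearer estrogen array. Probe sets of a gene read the same RNA of the same monkeys, so their agreement bears on the measurement of these animals and does not add animals. CXCL12, a chemokine gene, stood on the other side with 114, 82.5, 196 and 457 (1.23 ± 0.85), and the placebo arrays read 561 and 449. On its other probe sets the groups overlapped, at 7.40, 52.8, 181 and 53.8, and at 8.16, 17.5, 6.32 and 462.

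Agreement over probe sets was counted for all 2716 genes with at least 3 of them. Both arrays with both hormones lay below both estrogen arrays on every probe set for 29 genes (1.07%) and above for 10 (0.368%). Estrogen+progesterone 1 lay at least 0.5 log2 units below on every probe set for 2 genes (0.0736%), CA12 and PARP2, though mostly with readings under its floor, and as far above for 4 (0.147%), USP14, GLP1R, RHAG and LOC699468. Every probe set of GLP1R, RHAG and PARP2 failed the filter for testing. The 29 genes lower on both arrays include APOE, the guanine nucleotide-binding subunit GNB1, the synaptic scaffold DLG3 and AGO4, a component of RNA silencing. No reading of these 4 genes on estrogen+progesterone 2 exceeded its floor. On some probe sets of DLG3 and AGO4, only quantile normalization placed the arrays with both hormones below both estrogen arrays. GLRA3, a glycine receptor subunit, was among the 10 genes higher on both, with 4 of 4 probe sets. Its main probe set read 45.6, 20.8, 86.0 and 577 (2.31 ± 1.08), and no probe set of it exceeded the floor on both estrogen arrays.

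Of the named genes above the floor on both estrogen arrays and on estrogen+progesterone 1, USP14 lay farthest from the estrogen pair on that array. It encodes a deubiquitinase that sits on the proteasome. Its main probe set read 37.8, 57.6, 1344 and 122, with 215 on each placebo array, under the floor there. The gap to the nearer estrogen array was 3.22 log2 units. All 5 probe sets of USP14 showed this, with signals between 271 and 1381 on estrogen+progesterone 1 and no more than 75.7 on either estrogen array. Estrogen+progesterone 2 did not follow: its highest USP14 signal was 185, under its floor. The high signal is that of 1 monkey, and the mean difference was 1.56 ± 1.10.

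**Figure D3:**
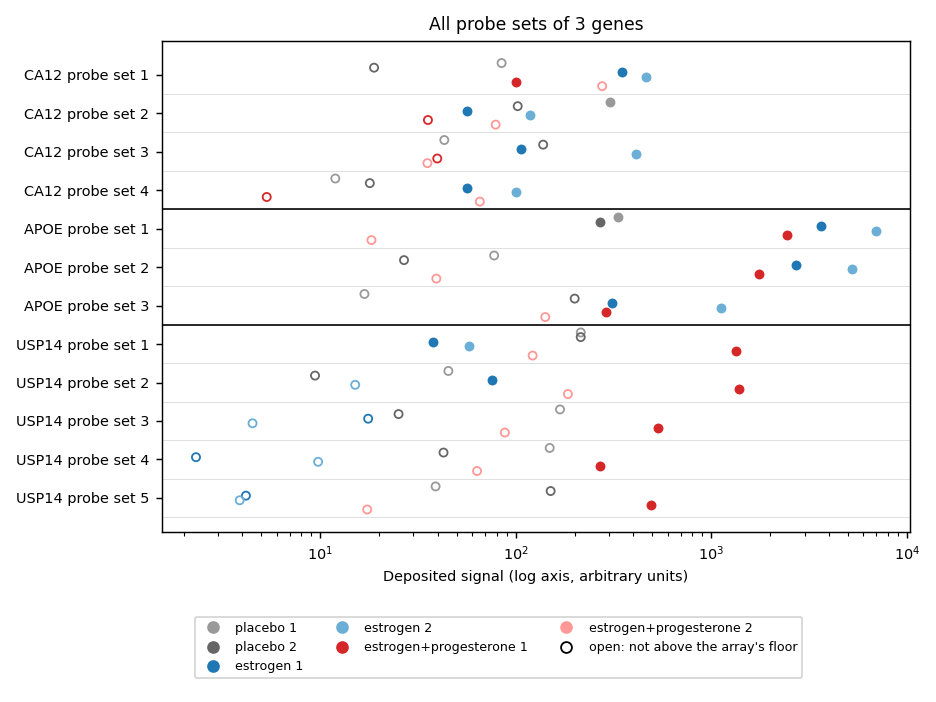
Deposited signal (log axis, arbitrary units) for each of the 4 probe sets of CA12, 3 of APOE and 5 of USP14 on all 6 arrays; open points are not above the array's floor. Both arrays with both hormones lie left of both estrogen arrays on all probe sets of APOE, as does estrogen+progesterone 1 on all of CA12; on the second and the fourth probe set of CA12 the open point of estrogen+progesterone 2 lies right of estrogen 1. Estrogen+progesterone 1 alone lies far right for USP14 (271 to 1381).

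The genes with the smallest unadjusted p among those whose groups did not overlap were named by rule, 10 in each direction with a difference of at least 1 log2 unit. Their adjusted p from limma was 0.799. Among the 10 higher with both hormones, STRN, a scaffold of signaling complexes that binds ESR1, read 3.93, 2.55, 80.4 and 560. It was under the floor on both estrogen arrays and at least 3.85-fold higher with both hormones, taking the floor as the estrogen level. Its other probe set overlapped between the groups, at 64.8, 12.9, 34.6 and 153. TMEM119, a microglial membrane protein, read 18.6, 5.003, 150 and 427, at least 3.67-fold higher. POU5F1, a pluripotency factor, read 7.52, 29.95, 97.0 and 427, and TPX2, a spindle assembly factor, 15.9, 23.7, 116 and 378.

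Of these 10 genes, 7 were under the floor on both estrogen arrays, and for all 10 both placebo arrays read above both estrogen arrays. With placebo floors of 216 and 221, however, 1 of the 2 placebo readings was not above background for STRN, PGM5, POU5F1, TPX2 and TNFSF14. Estrogen+progesterone 2 was farther from estrogen than estrogen+progesterone 1 for each of the 10. SFI1, a centrosomal protein, read 67.0, 44.2, 367 and 1382, and GABPB1, a partner of ETS transcription factors, 3.05, 57.2, 105 and 833. GLYAT, PGM5 and TNFSF14 completed the group, all under the floor on both estrogen arrays. Other probe sets of SFI1, GABPB1 and GLYAT included ones that overlapped between the groups. PDZK1IP1 was the 1 gene of the 10 above the floor on all 4 arrays, at 44.7, 120, 509 and 997 (3.09 ± 1.002). It has 2 other probe sets, of which 1 overlapped between the groups and 1 was lower with both hormones.

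Among the 10 lower genes, 3 were under the floor on both arrays with both hormones. PTK2B, a calcium-activated tyrosine kinase of synapses, read 154, 510, 40.1 and 27.7, at least 2.00-fold lower when the floor stands for the level with both hormones. DCAKD read 370, 227, 39.6 and 83.1, at least 1.95-fold lower. Both have another probe set on which the groups overlapped. CFAP65, a flagellar protein, read 105, 107, 24.5 and 44.98, with a bound of 1.06-fold. In all 3 both placebo arrays were above their floor and above both arrays with both hormones. The bounds are small because the floor of estrogen+progesterone 2 is high.

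The other 7 lower genes were above the floor on estrogen+progesterone 1 and took intermediate values there. ETV1, an ETS transcription factor of neuronal maturation, read 970, 4924, 484 and 120 (-2.85 ± 1.07). A second tested ETV1 probe set overlapped, with a difference of 0.38 (59.6, 243, 106 and 385). CADPS2, which primes dense-core vesicles for release, read 1553, 3587, 604 and 97.0 (-2.88 ± 1.09). ACTB, cytoplasmic beta-actin, read 5793, 6503, 2631 and 293 (-2.56 ± 1.01). For ACTB the first array was 1.02 log2 units below the nearer estrogen array, where the 2 estrogen monkeys were close together. APOE, the lipid carrier made chiefly by astrocytes in brain, read 3638, 6979, 2444 and 18.3 (-3.92 ± 1.57). Without estrogen+progesterone 2 its difference was -1.07, and for ACTB it was -1.29. XKRX, the transcription factor subunit GTF2E2 and the actin-sequestering TMSB10 (5111, 5366, 2965 and 81.2) had the same order of arrays. The 2 other probe sets of XKRX, under the floor on all 6 arrays, had positive differences, and another of TMSB10 overlapped. The placebo arrays lay below both estrogen arrays for 7 of the 10.

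**Figure D4:**
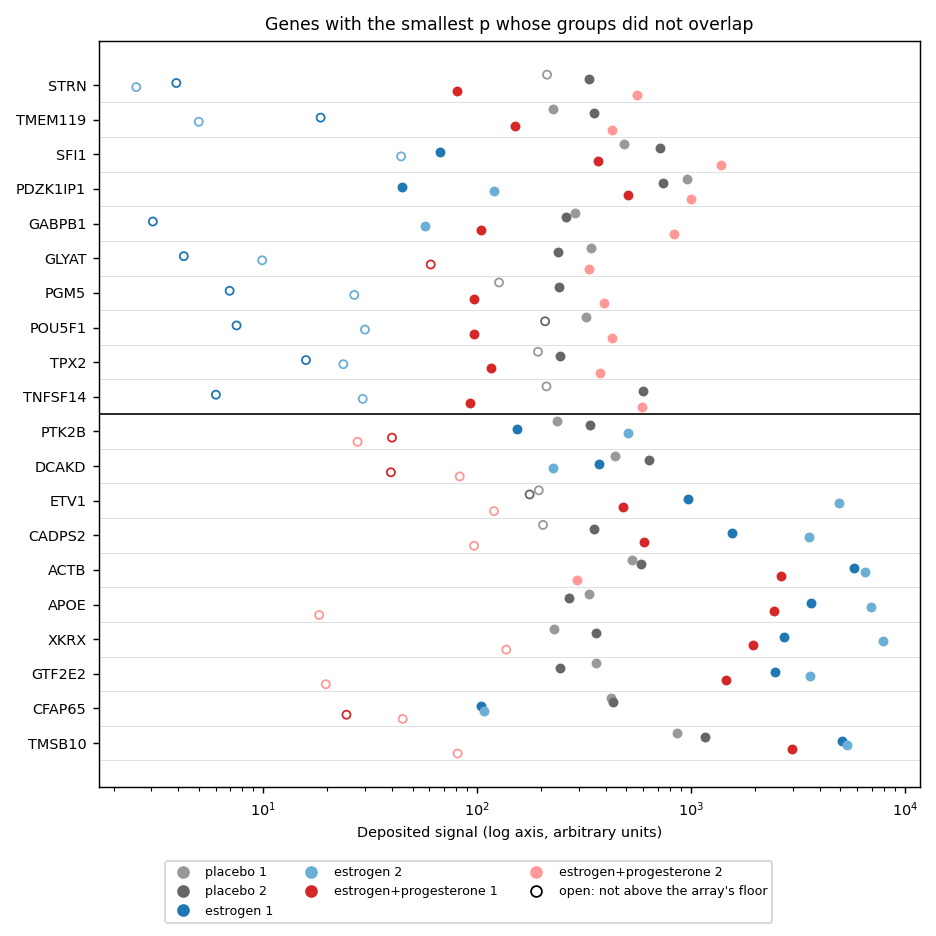
Deposited signal (log axis, arbitrary units) on all 6 arrays of the 10 genes higher (top) and 10 lower (bottom) with both hormones, chosen by the smallest unadjusted p among genes whose groups did not overlap; open points are not above the array's floor. In the upper 10 the placebo points lie right of both estrogen points, and 7 have open points for both estrogen arrays.

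Restricting to the 3624 genes above the floor on all 4 arrays removed the genes without signal. The floor of estrogen+progesterone 2 (283) is far above those of the estrogen arrays (29.99 and 51.6). The restriction therefore also selects genes that read high on that array. In this set the groups did not overlap for 24.3% higher and 10.7% lower, shares that this selection shapes. The 6 named as higher were PDZK1IP1, the MHC class II gene MAMU-DQA1 (91.8, 132, 399 and 1237), the secreted phospholipase PLA2G2E (30.8, 53.4, 199 and 509), EMID1, the olfactory receptor OR51S1 and HACD1, an enzyme of fatty acid elongation. In 5 of these 6 both placebo arrays were above both estrogen arrays. PLA2G2E was the exception, at 146 and 51.0 with placebo, both under the floor. The 6 named as lower were ACTB, NDRG2 (8492, 12957, 6147 and 292), the growth-cone protein STMN2, TCEAL9, the synaptic adhesion protein NLGN4X and the transcription factor ZIC2 (1145, 2495, 491 and 311). For TCEAL9 (15865, 16379, 17854 and 359) and NLGN4X the deposited signal of estrogen+progesterone 1 was at the estrogen level, and only quantile normalization placed it under both estrogen arrays. Each of EMID1, HACD1, NDRG2, TCEAL9 and NLGN4X has another probe set on which the groups overlapped. For NLGN4X a tested one had a difference of 1.39 (67.9, 5.11, 13.4 and 507).

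The 12 genes that estrogen+progesterone 1 placed at least 1 log2 unit above the estrogen pair, and the 4 it placed below, are few. They were counted only among the 8509 genes above the floor on these 3 arrays, and this filter shapes both counts. It leaves out genes under the floor on estrogen+progesterone 1, such as DCAKD and PTK2B (gaps of -1.93 and -1.69). Genes under the floor on both estrogen arrays, such as STRN and TMEM119 (gaps of 2.19 and 1.86), are left out too. Of the 12, the named ones beside USP14, PDZK1IP1 and PLA2G2E include TMCO6 (300, 213, 1101 and 52.7), GATD3 (520, 469, 1561 and 28.3), LBX2, the DNA repair scaffold SLX4 (49.3, 55.3, 185 and 139) and FNDC11. Estrogen+progesterone 2 went the other way for TMCO6 and GATD3 and stayed under its floor. Behind CA12 on the low side came the actin regulator INF2 (221, 284, 86.7 and 43.1), the glycolipid transfer protein GLTP (298, 299, 105 and 192), and then ACTB. Another probe set of INF2 went the other way, at 41.7, 57.7, 95.6 and 59.0. There estrogen+progesterone 1 was above both estrogen arrays. Other genes were just short of 1 unit below. The GABA-A receptor subunit GABRA4 read 231, 192, 76.9 and 396, so here the arrays with both hormones stood on opposite sides, both above their floors. MAP1B, a microtubule protein of axons, read 437, 450, 163 and 220.

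Gene lists showed the same division between the arrays. A list is described by its median difference beside that of all tested genes, -0.44 with both arrays of both hormones. That overall value depended on scaling: it was -0.29 without quantile normalization and -1.10 after median-centering, so lists are read relative to it. No member of any of the 32 lists passed the adjusted threshold. The lists farthest below the median of all genes held oligodendrocyte and astrocyte markers, neuropeptides and abundant housekeeping machinery. The median was -1.60 for oligodendrocyte markers, -1.40 for astrocyte markers and -1.29 for neuropeptides. Among the housekeeping lists it was -1.55 for 47 oxidative phosphorylation genes, -1.33 for 21 proteasome genes, -1.22 for 32 ribosomal protein genes and -1.16 for 27 chaperones. Without estrogen+progesterone 2 these 4 housekeeping medians were 0.06, -0.18, 0.02 and -0.13, against 0.05 for all genes. Relative to all genes, estrogen+progesterone 1 alone gave 0.01 for oxidative phosphorylation and -0.05 for ribosomal proteins, but -0.21 for the proteasome (10 of 21 below both estrogen arrays, 5 above) and -0.16 for chaperones (10 of 27 below, 4 above). On estrogen+progesterone 2 the 4 values were -2.31, -1.78, -1.63 and -1.34.

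Single members show it. ATP5PO, a subunit of ATP synthase, read 3997, 5332, 3205 and 52.1 (-3.19 ± 1.51), and NDUFA6, a subunit of complex I, 6633, 6234, 6018 and 253. The proteasomal ATPase PSMC5 read 1498, 2438, 1075 and 19.1 (-3.11 ± 1.39) and the chaperonin subunit CCT8 1875, 2365, 1315 and 10.3. On estrogen+progesterone 2 all 4 of these readings were under the floor. Other probe sets did not all follow. For NDUFA6 a tested one was higher with both hormones (854, 649, 866 and 512) and another overlapped (1112, 1119, 1294 and 305), while others were lower. For ATP5PO an untested one read 16.9, 8.86, 63.7 and 300, and a tested one was lower. Of the 21 proteasome genes, 6 exceeded the floor of estrogen+progesterone 2, and of the 47 oxidative phosphorylation genes 26 did. All 21 and all 47 exceeded the floor on estrogen+progesterone 1. In bulk RNA of captured cells, fewer cells of a type and less RNA per cell cannot be told apart.

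Synaptic vesicle release was the list with the lowest median on estrogen+progesterone 1 among lists of at least 5 tested genes. Of its 15 tested genes, estrogen+progesterone 1 lay below both estrogen arrays for 9 and above both for 2, against 27.0% and 34.5% of all genes. Its median on that array was -0.53 relative to all genes, and -0.69 without quantile normalization. Both arrays were below for 7 of 15 and above for 0, against 17.9% and 13.5% of all tested genes. SV2B, a vesicle glycoprotein, read 1412, 2741, 657 and 176 (-2.28 ± 0.97). SYT1, the calcium sensor of fast release, read 8595, 7648, 6659 and 151, and DNM1, the dynamin of vesicle endocytosis, 2006, 2643, 1338 and 263. AP2M1, an adaptor of clathrin coats, read 680, 2270, 800 and 91.8, within the estrogen range on estrogen+progesterone 1.

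The lists of other excitability genes differed among themselves. Of 22 potassium channel genes estrogen+progesterone 1 lay below both estrogen arrays for 12 and above for 1, and of 29 kinase signaling genes it lay below for 14 and above for 4, against 27.0% and 34.5% of all genes. Of 15 sodium and calcium channel genes it lay below for 5 and above for 4, and of 10 glutamate genes below for 3 and above for 3. KCND2, a subunit of the A-type current, read 40.4, 263, 14.3 and 68.4 and was under the floor on both arrays with both hormones, which leaves a bound of 1.07-fold lower. KCNK1, a two-pore channel, read 1031, 718, 495 and 20.03. On its other tested probe set (238, 519, 344 and 38.6) estrogen+progesterone 1 lay between the estrogen monkeys. CAMKK2, a calcium-dependent kinase upstream of AMPK, read 1116, 3697, 718 and 225 (-2.13 ± 1.01), and PPP3CB, a calcineurin subunit, 2091, 3430, 1684 and 264. The 2 estrogen monkeys themselves stood far apart for CAMKK2. A second tested CAMKK2 probe set overlapped (266, 1442, 161 and 370), and an untested one was higher with both hormones (23.2, 36.3, 40.1 and 204). Another tested probe set of PPP3CB overlapped (860, 318, 886 and 221), and a further one was lower (360, 768, 220 and 127). The median on estrogen+progesterone 1 relative to all genes was -0.22 for the potassium channels, -0.19 for the kinases and 0.03 for the sodium and calcium channels.

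Lists on the high side of estrogen+progesterone 1 were those of cholesterol synthesis, cytokines and vessel cells. For cholesterol synthesis, which feeds neurosteroid production, 10 of 18 genes lay above both estrogen arrays and 4 below on that array, against 34.5% and 27.0% of all genes, and the median was 0.23 relative to all genes. INSIG1, the sterol sensor's anchor in the endoplasmic reticulum and singled out after its values were seen, read 1526, 1136, 2612 and 311. On estrogen+progesterone 2, 17 of the 18 lay below both. For 12 genes of steroid and neurosteroid metabolism, estrogen+progesterone 1 lay above both for 7 and below for 1, against the same shares. SULT2A1, a steroid sulfotransferase, read 18.3, 47.8, 87.8 and 283. Of these arrays it was above the floor on estrogen+progesterone 1 alone, and both placebo arrays were above theirs (448 and 358). Its other probe sets read 35.5, 20.5, 6.18 and 169, and 17.8, 15.8, 9.34 and 136. On these, estrogen+progesterone 1 lay below both estrogen arrays.

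Of 17 cytokine and inflammatory genes, both arrays with both hormones were above both estrogen arrays for 5 and below for 0, against 13.5% and 17.9% of all tested genes, and the median was 0.40, or 0.30 without estrogen+progesterone 2. After median-centering that median was -0.26; relative to all genes it was 0.85 with quantile normalization and 0.84 without. IL1B, the inflammatory cytokine, read 33.2, 35.4, 182 and 266 with 308 and 312 on the placebo arrays. Its 266 is not above the floor of estrogen+progesterone 2. The 2 other probe sets of IL1B did not repeat the pattern: 1 was lower with both hormones and 1 overlapped. Among growth factors and their receptors, BMP7 read 5.47, 52.0, 218 and 305 (2.27 ± 0.87). It was the member of smallest p, but only 1 of its 5 probe sets separated the groups.

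**Figure D5:**
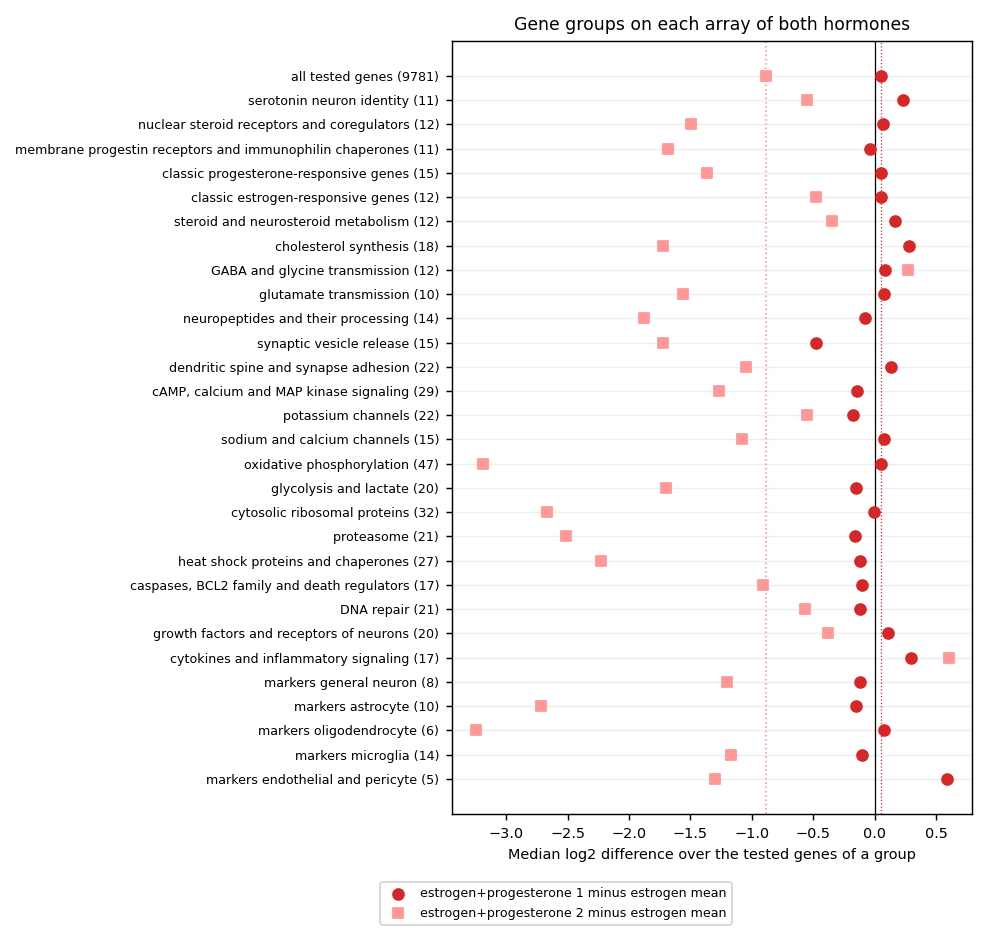
Median log2 difference from the estrogen mean over the tested genes of each list (number in parentheses), for estrogen+progesterone 1 (circles) and estrogen+progesterone 2 (squares); dotted lines mark the medians of all 9781 tested genes. Circles stay near 0 with synaptic vesicle release lowest, while squares spread to the left, farthest for oligodendrocyte markers and oxidative phosphorylation.

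Transmitter receptors gave no common direction. Among 12 tested GABA and glycine genes, the groups did not overlap for 3 higher and 1 lower, close to the 13.5% and 17.9% of all tested genes. GAD1, which makes GABA, read 2305, 2003, 2561 and 16.1, and GPHN (gephyrin), the scaffold of inhibitory synapses, 659, 652, 559 and 158. ALDH5A1, which breaks GABA down, read 85.9, 108, 190 and 353, above both estrogen arrays on both arrays. Of 10 glutamate genes the groups did not overlap for 1 higher and 1 lower; the lower was the AMPA receptor subunit GRIA1, at 335, 726, 182 and 18.4 (-2.57 ± 1.21). Among 14 neuropeptide genes, PENK, the enkephalin precursor, read 3585, 2045, 2836 and 7.07, and the receptor CRHR1 62.0, 209, 31.1 and 88.8, under the floor on both arrays with both hormones.

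Lists of cell death and repair genes lay on the low side on estrogen+progesterone 1 by small amounts. Of 17 tested genes of caspases and the BCL2 family, both arrays were above both estrogen arrays for 1 and below for 7, against 13.5% and 17.9% of all tested genes. BBC3 (PUMA), a pro-apoptotic BCL2 family member, read 353, 171, 76.3 and 125, and HTRA2, a mitochondrial protease that promotes death, 383, 384, 277 and 70.4. After normalization all 3 probe sets of HTRA2 were lower on both arrays. Of 21 DNA repair genes, 2 were higher without overlap and 6 lower, against the same shares. XPA, a damage recognition factor, read 372, 422, 284 and 19.1, and PRKDC, the kinase of end joining, 1545, 1170, 1123 and 168.

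Markers of other cells were present in these captures and varied between arrays. The 8 measured markers of neurons in general summed to 38901, 37309, 36604 and 5513. For astrocytes (11 markers) the sums were 79410, 95201, 87426 and 4933, and for oligodendrocytes (6 markers) 48018, 61204, 64033 and 3160. Estrogen+progesterone 1 thus lay within or near the estrogen range for all 3 classes. GFAP, the astrocyte filament, read 12884, 18296, 13706 and 756, and MBP of myelin 25757, 43656, 39069 and 1850. The part of these cells in the differences of APOE, NDRG2 and other glial genes was not tested.

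Endothelial and pericyte markers, taking 1 probe set per gene, were the 1 class entirely on the high side of estrogen+progesterone 1. All 5 tested genes (VWF, CLDN5, KCNJ8, PECAM1 and TEK) lay above both estrogen arrays there, against 34.5% of all genes. The 9 measured markers summed to 1031, 1100, 1682 and 1584. The placebo sums were 1228 and 1623. Only 2 of the 9 exceeded the floor on estrogen+progesterone 2. PECAM1 read 193, 164, 328 and 335, and CLDN5, a tight junction protein, 207, 238, 341 and 28.7. Another tested probe set of PECAM1 read 7.43, 71.4, 44.1 and 425, with estrogen+progesterone 1 between the estrogen monkeys. A further tested one read 84.3, 131, 159 and 162, with estrogen+progesterone 1 above both. Relative to all genes, the medians of this list and of the cytokine list were 0.54 and 0.25 on estrogen+progesterone 1. They parted on estrogen+progesterone 2, at -0.42 and 1.48. The part of vessel cells in the cytokine values was not tested. Dopamine and noradrenaline markers summed to 11281, 1856, 4458 and 1074. The dopamine transporter SLC6A3 read 7760, 603, 1993 and 155, so the 2 estrogen monkeys differed more from each other than estrogen+progesterone 1 did from either. Microglial markers summed to 5015, 5045, 6564 and 3175 and erythrocyte markers to 65.5, 141, 172 and 501.

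Leaving out estrogen+progesterone 1 was the 1 setting that gave calls. With estrogen+progesterone 2 alone against the estrogen arrays, and its spread taken from the other groups, 3945 probe sets passed an adjusted p under 0.05 with limma, 1302 higher and 2643 lower. This result assumes that the lone array varies like the placebo and estrogen arrays.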

How the data were processed

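RNA of laser-captured neurons was extracted with a column microkit, per the labels' protocols, and measured on an Affymetrix rhesus array. The deposited intensities are linear; in the files each array has a trimmed mean near a common value, and the authors' summarization software is not given in the sources used here. Of 52766 non-control probe sets, 24956 have 1 gene symbol in the platform annotation, 361 several and 27449 none; 24616 of the symbols matched RefSeq.

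Values were taken as log2(intensity + 16) and quantile-normalized over 6 arrays. Probe sets at or above the 50th percentile of mean signal were kept (26383) and fitted with limma 3.58.1 in R 4.3.3 as 3 group means with 3 residual degrees of freedom, Benjamini-Hochberg adjustment and a threshold of 0.05. Fold bounds put the dim group at its floor and compare group means. The number of arrays limits precision. The fit was tested on simulated data.

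The named genes are the 10 of smallest p in each direction whose groups did not overlap, 6 in each direction above the floor on all 4 arrays, 10 on each side where estrogen+progesterone 1 lay farthest outside the estrogen pair, 19 fixed genes (5 without a probe set) and up to 4 of each list by p. Members, lists and rules were chosen with earlier results of these data known.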

Additional observations from a re-analysis of the deposited data

How the results depend on the processing

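The count of probe sets called was 0 in the main analysis and stayed 0 with offsets of 1 and 64, without quantile normalization, after median-centering, with no filter or one at the 75th percentile, with a trended prior, with array weights and with only the 4 arrays of the 2 groups; at an unadjusted p under 0.05 limma gave between 134 and 1557 probe sets there, and 464 in the main analysis. Leaving out 1 array at a time gave counts from 0 to 3945, the latter without estrogen+progesterone 1; the cause was not tested. Blocking on the replicate number gave 0 calls and 765 at an unadjusted p under 0.05; same-numbered arrays did not deviate together in each pair (r = 0.0822, -0.0318 and -0.0633), so the numbers were not taken as pairs. Of 166 tested named genes, 133 kept their sign without estrogen+progesterone 2, 161 without estrogen+progesterone 1 (84 then called), and at least 163 under each other setting that kept all of them; the stricter filter left 114. Of 32 list medians, 16 kept their sign without estrogen+progesterone 2, 27 without quantile normalization and 31 after median-centering. Relative to all genes, 29 of 32 list medians of estrogen+progesterone 1 kept their sign without quantile normalization, an alternative chosen after seeing the data. The depth limit is the signal over background of estrogen+progesterone 2, where 28.7% of probe sets exceeded the floor.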
